A study of Homo sapiens with 4 samples.

Results

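Mitochondrial complex I (NADH:ubiquinone oxidoreductase) was examined through 44 nuclear genes: 36 that encode subunits, named NDUF, and 8 that encode assembly factors, named NDUFAF. They were picked by gene symbol from a given list, out of 62700 genes in the count table, and all 44 had enough fragments to be tested, among 18973 tested genes. RNA was sequenced from 4 libraries of HEK293T, an established human embryonic kidney line, in cells carrying CMV-V5-MITO-PRADA, a V5-tagged labelling construct driven by the CMV promoter and directed to the mitochondrial matrix. Every culture, controls included, had s4U (4-thiouridine, a uridine analogue taken up into new RNA) at 100 µM over 5 h, followed by 0.5 mM alkyne phenol for 30 min with s4U still present. The 2 labelled libraries came from cells that then had 10 mM D-amino acid for 30 min, which starts the labelling reaction, and the 2 unlabelled libraries from cells without it. The labels describe the cells as a stable clone derivative and give ribosomal RNA depletion. The titles name Maxima H, a reverse transcriptase, and carry the letters DF on the labelled libraries only. The series text speaks of labelled and enriched material, so a count here is a share of recovered RNA and not of the RNA in the cell. Biological replicates is the term in the titles, with nothing on how the cultures were kept apart, so a p-value reflects library-to-library spread only.

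Complex I is the entry point of the respiratory chain. It oxidises NADH, passes the electrons along iron-sulfur clusters to ubiquinone and pumps protons across the inner membrane. Its core subunits do the chemistry and the pumping, its accessory subunits surround and stabilise them, and assembly factors help to build it without staying in the finished enzyme. The membrane core is encoded by the mitochondrial chromosome and made in the matrix, whereas the mRNAs of the 44 genes are made in the nucleus and translated in the cytosol before the proteins are imported. Comparing the 2 groups therefore asks how RNAs that are not made in the matrix fared beside those that are.

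The 3 promoters shown are those of NDUFB4 and NDUFB7, the subunits with the smallest unadjusted p-values, and of NDUFAF4, the assembly factor with the highest fold change. Each run is the 200 bases before the gene's start in RefSeq on GRCh38.p14, 5′ to 3′ on the gene's strand, and capitals mark a motif match.
NDUFB4 (chr3:120596136-120596335, plus strand): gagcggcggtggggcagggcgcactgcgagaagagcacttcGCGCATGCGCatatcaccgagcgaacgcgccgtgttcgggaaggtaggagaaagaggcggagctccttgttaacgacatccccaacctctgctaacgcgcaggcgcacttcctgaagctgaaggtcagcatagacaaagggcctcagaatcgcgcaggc
NDUFB7 (chr19:14572067-14572266, minus strand): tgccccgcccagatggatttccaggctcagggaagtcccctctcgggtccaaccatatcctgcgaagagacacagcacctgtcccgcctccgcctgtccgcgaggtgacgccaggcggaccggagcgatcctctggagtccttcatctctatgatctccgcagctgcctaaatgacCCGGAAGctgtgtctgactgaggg
NDUFAF4 (chr6:96897892-96898091, minus strand): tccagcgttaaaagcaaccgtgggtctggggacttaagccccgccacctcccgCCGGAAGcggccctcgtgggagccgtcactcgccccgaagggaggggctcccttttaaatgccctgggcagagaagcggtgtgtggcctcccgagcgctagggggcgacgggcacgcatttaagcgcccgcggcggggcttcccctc
The capitals in NDUFB4 are the NRF1 motif GCGCATG, which overlaps its own reverse complement there and starts 159 bases before the gene. Those in NDUFB7 and NDUFAF4 are the ETS motif CCGGAAG, 24 and 147 bases before the start. NRF1 is a transcription factor known for nuclear genes of the respiratory chain. Windows of 300 bases around the start (250 before, 50 after) were held for 39 of the 44 genes, and motifs were searched as exact letters on both strands. The NRF1 motif lay in 9 of the 39, among them NDUFA8, NDUFB4 and NDUFAF4, against 5.30% of 27305 genes. The motif GATGGCG of YY1, another regulator of such genes, lay in 7 of 39 (5.11% of all genes), and the ETS motif in 7 of 39 (12.2%). Of 35116 windows, 4.43% held the NRF1 motif, 4.20% that of YY1 and 10.3% the ETS motif. NDUFB4 and NDUFB7 did not share a motif among those searched. A match describes letters in a window and does not show binding.

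Assigned fragments numbered 8172347 and 5771795 without and 9380258 and 12287451 with D-amino acid. The mitochondrial chromosome took 9.04% and 10.4% of fragments in unlabelled and 27.0% and 30.9% in labelled libraries. Unlabelled replicate 2 stood apart from the other 3, with a median absolute log2 difference over tested genes of 0.26 to 0.29 from each of them, while the other pairs were at 0.14 to 0.20. Where leaving out an unlabelled library made a call for a gene described by its values in every library, the values without each unlabelled library are given, except for NDUFB4. The cell identity markers were present: 6 of 6 HEK293T-expressed genes had at least 3 fragments in every library. Of 9 markers of blood, liver, fibroblast and endothelial cells, 1 (COL1A1) did, and HBB, COL1A2 and DCN were at 0. The summed level of those 9, nearly all COL1A1, was 13.7 to 19.8 CPM (fragments per 1000000 of TMM-scaled library size) in unlabelled and 21.2 to 21.7 CPM in labelled libraries, so the labelled values were the higher ones, and their part in the results was not tested.

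As a group, complex I transcripts made up a smaller part of the labelled libraries. They took 0.282% (95% Wilson interval 0.278 to 0.285%) and 0.282% (0.278 to 0.286%) of assigned fragments in unlabelled replicates 1 and 2. In labelled replicates 1 and 2 they took 0.205% (0.202 to 0.208%) and 0.197% (0.195 to 0.200%). The groups did not overlap, the ratio of their means was 0.713, and no test was made. Mitochondrial transcripts fill more of the labelled libraries, and over nuclear fragments alone the shares lay closer together: 0.310% and 0.315% in unlabelled against 0.280% and 0.285% in labelled libraries, a ratio of 0.906. In bulk libraries of recovered RNA, a smaller part recovered, fewer cells holding a transcript and less of it per cell cannot be told apart. Intervals cover counting error only, since no molecular identifiers mark repeated reads of 1 molecule.

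Gene by gene, most subunit transcripts sat slightly lower in labelled libraries, and the assembly factors lay on both sides of 0. The log2 fold change (labelled over unlabelled, from the edgeR quasi-likelihood fit with TMM scaling) was below 0 for 32 of the 44 genes, against 52.0% of all tested genes. The median was -0.15, beside -0.01 over all tested genes. For the 36 subunits 28 were below 0 and the median was -0.18, and for the 8 assembly factors 4 were below 0 and the median was 0.03. The difference between subunits and assembly factors was not tested.

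**Figure D1:**
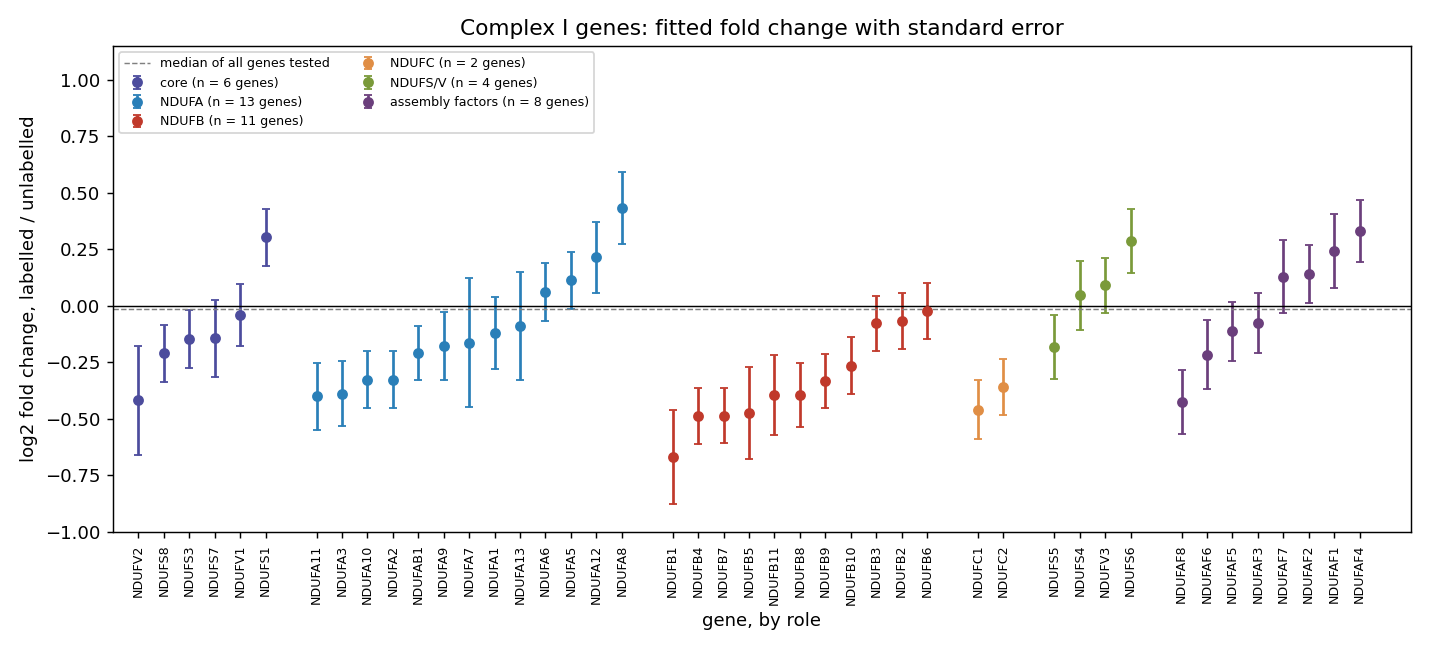
Fitted log2 fold change, labelled over unlabelled, of each of the 44 genes on the vertical axis, with bars of 1 standard error, ordered within roles on the horizontal axis. All 11 NDUFB subunits lie below 0, while 4 of the 8 assembly factors lie above it. The dashed line is the median of all genes tested, -0.01.

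No single gene passed the test. At a Benjamini-Hochberg adjusted p under 0.05 over all genes (edgeR), 0 of the 44 were called, where 0.285% of tested genes were, 0.269% higher and 0.0158% lower. The smallest adjusted p among the 44 was 0.194, and DESeq2 also called 0. At an unadjusted p under 0.05, edgeR gave 14 genes lower and 3 higher, where 5.88% and 5.67% of tested genes were. DESeq2 gave 8 in all. Its share over all tested genes was not worked out, and the edgeR shares do not apply to that count. Both labelled libraries lay below both unlabelled ones for 20 of the 44 genes (22.4% of tested genes) and above them for 7 (22.2%), and the groups overlapped for 17.

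The unlabelled libraries weighed on these calls. With unlabelled replicate 1 left out, edgeR called 18 of the 44 genes, 13 lower and 5 higher, where 7.37% of genes were called lower and 11.6% higher. With unlabelled replicate 2 left out it called 7, all lower, where 2.55% were called lower and 2.06% higher. These fits share both labelled libraries, so a gene called in both was not found independently. Leaving out either labelled library gave 0 calls. In these fits with 3 libraries, 1 group is a single library that is taken to vary like the other group. Without an unlabelled library the spread comes from the labelled pair. That pair was the closest of all, with a median absolute log2 difference of 0.14, so the calls can be too many. The subunit median stayed between -0.21 and -0.18 whichever library was left out, and the assembly factor median lay between -0.04 and 0.11. Scaling by library size alone moved the median of all tested genes to -0.37 and called 23 of the 44, all lower, where 14.1% of genes were called lower and 0.364% higher. Relative to that shift the subunit median was -0.17 and the assembly factor median 0.04.

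**Figure D2:**
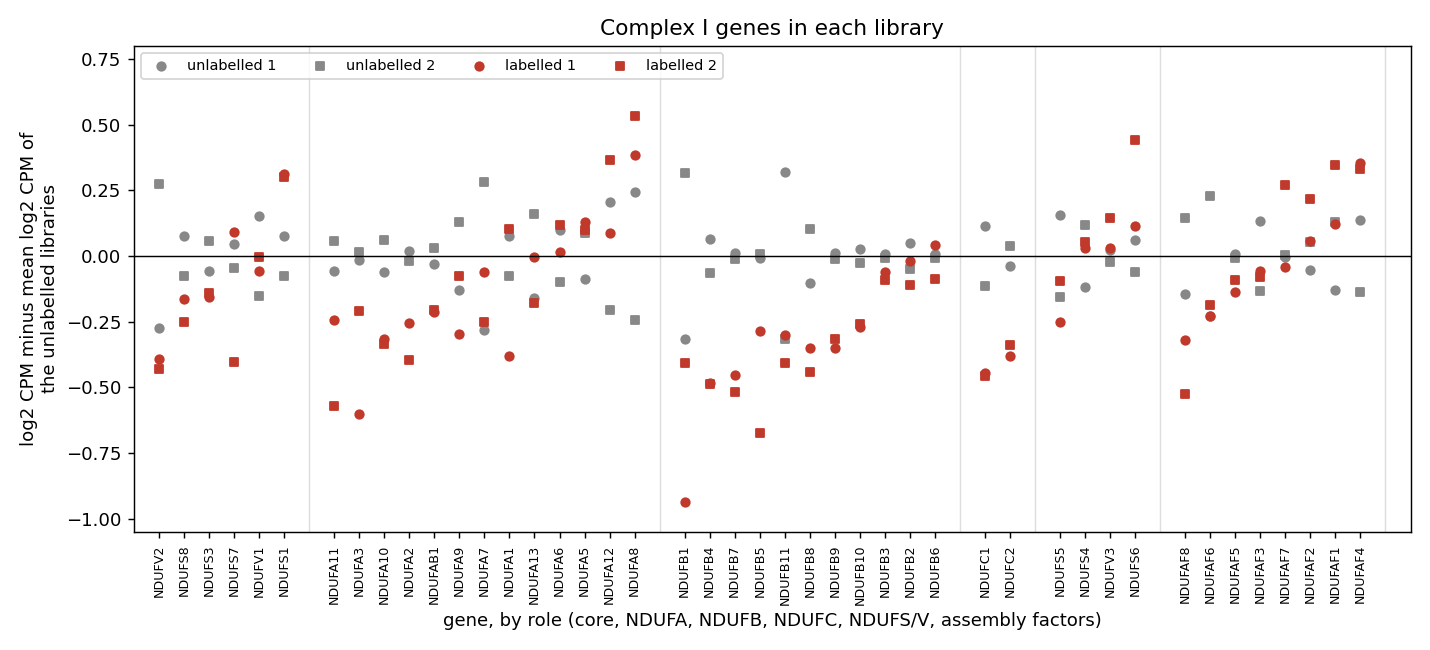
Each point is 1 gene in 1 library: log2 CPM minus the mean log2 CPM of the unlabelled libraries for that gene (vertical axis), with genes by role along the horizontal axis. Grey marks unlabelled and red labelled libraries, circles replicate 1 and squares replicate 2. The red points of NDUFB4, NDUFB7, NDUFB9 and NDUFB10 lie close together below the grey ones, whereas those of NDUFB1 are spread widely.

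The 6 core genes of the list carry the NADH site and iron-sulfur clusters of the arm that reaches into the matrix. Their log2 fold changes were below 0 for 5 of 6, with a median of -0.15, and none had an unadjusted p under 0.05 on the lower side. NDUFS1, the large iron-sulfur subunit (ENSG00000023228, chromosome 2, 206114817 to 206159509), lay on the other side of 0, at 115 and 104 CPM (unlabelled) and 135 and 134 CPM (labelled). Both labelled values were higher than both unlabelled ones. The log2 fold change was 0.30 ± 0.13 (SE), with an edgeR adjusted p of 0.406. It was 0.41 without unlabelled replicate 1 and 0.23 without unlabelled replicate 2.

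NDUFV1, which binds NADH and its flavin, was at 127 and 103 CPM (unlabelled) and 110.2 and 114 CPM (labelled), so the labelled values fell inside the unlabelled range. Its log2 fold change was -0.04 ± 0.14 (edgeR adjusted p 0.938). NDUFV2, its iron-sulfur partner in the NADH module, was at 8.35 and 12.2 CPM (unlabelled) and 7.70 and 7.50 CPM (labelled). The groups did not overlap, but the unlabelled replicates lay further from each other than replicate 1 lay from the labelled pair. NDUFV2 had -0.42 ± 0.24 on the log2 scale (edgeR adjusted p 0.527), and -0.65 without unlabelled replicate 1 but -0.13 without unlabelled replicate 2. Its counts are uncertain, because a pseudogene copy held up to 20.5% as many fragments as the gene itself and 28.4% of its exon bases lie in another annotated gene.

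NDUFS8, an iron-sulfur subunit next to the ubiquinone site, was at 88.6 and 79.7 CPM (unlabelled) and 75.1 and 70.5 CPM (labelled). NDUFS3, also of the ubiquinone module, was at 32.3 and 35.0 CPM against 30.2 and 30.5 CPM. For both genes the labelled libraries were the lower ones, with log2 fold changes of -0.21 ± 0.13 and -0.15 ± 0.13 (edgeR adjusted p 0.543 and 0.685). NDUFS7, which carries the last iron-sulfur cluster before ubiquinone, was at 27.3 and 25.6 CPM (unlabelled) and 28.2 and 20.01 CPM (labelled), and the groups overlapped. Its log2 fold change was -0.14 ± 0.17 (edgeR adjusted p 0.768), and 51.4% of its exon bases lie in other annotated genes.

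The NDUFB proteins belong to the membrane arm, mostly its far end. All 11 genes had a log2 fold change below 0, with a median of -0.40. An unadjusted p under 0.05 was found for 7 of 11, where 5.88% of tested genes were lower at that p. Both labelled libraries lay below both unlabelled ones for 8 of the 11 (22.4% of tested genes), and the groups overlapped for the other 3. NDUFB7 (ENSG00000099795, chromosome 19, 14566078 to 14572066), a small protein with a twin-cysteine fold on the intermembrane side, had the smallest p of all 44 genes. It was at 56.5 and 55.7 CPM (unlabelled) and 40.9 and 39.2 CPM (labelled). The replicates of each group were close and the groups stood clear of each other. Its log2 fold change was -0.49 ± 0.12 (edgeR adjusted p 0.194).

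NDUFB4 (ENSG00000065518, chromosome 3, 120596328 to 120602507), a single-pass membrane subunit, was at 101 and 92.3 CPM (unlabelled) and 68.9 CPM in both labelled libraries. This too was a clear separation, with a fitted log2 value of -0.49 ± 0.12 (edgeR adjusted p 0.199). Its copies elsewhere in the genome, 12 annotated pseudogenes, held at most 4.19% as many fragments as the gene. The log2 fold change of NDUFB7 was -0.45 without unlabelled replicate 1 and -0.49 without unlabelled replicate 2. It was -0.50 without labelled replicate 1 and -0.44 without labelled replicate 2.

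NDUFB1 (ENSG00000183648, chromosome 14, 92116122 to 92121917), one of the smallest membrane subunits, had the lowest log2 fold change, -0.67 ± 0.21 (edgeR adjusted p 0.304). Its CPM were 49.4 and 76.8 in unlabelled and 32.2 and 46.5 in labelled libraries. Unlabelled replicate 1 and labelled replicate 2 were almost level, while the other pair, at 76.8 and 32.2, lay furthest apart. The value depended on the library left out: it was -0.92 without unlabelled replicate 1 and -0.31 without unlabelled replicate 2. It was -0.41 without labelled replicate 1 and -0.95 without labelled replicate 2. With no filter on low counts it was -0.64, with an edgeR adjusted p of 0.00935.

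NDUFB10, another twin-cysteine protein and the NDUFB transcript with the highest level per length, was at 150.5 and 145 CPM (unlabelled) and 123 CPM in both labelled libraries. The labelled pair was lower, with a fitted log2 value of -0.27 ± 0.13 (edgeR adjusted p 0.444). NDUFB6 was the least different member, at 51.0 and 50.4 CPM against 52.1 and 47.7 CPM. Its groups overlapped and its log2 fold change was -0.02 ± 0.12. It changed sign with no filter on low counts, at 0.0046. NDUFB11 was at 104 and 67.1 CPM (unlabelled) and 67.9 and 63.1 CPM (labelled), and the groups overlapped because unlabelled replicate 2 lay between the labelled values. Its fitted log2 value was -0.40 ± 0.18 (edgeR adjusted p 0.426), with -0.67 without unlabelled replicate 2 and -0.0073 without unlabelled replicate 1.

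The accessory subunits NDUFC1 and NDUFC2 also lie in the membrane arm. NDUFC1 was at 67.3 and 57.3 CPM (unlabelled) and 45.6 and 45.2 CPM (labelled), and NDUFC2 at 39.4 and 41.5 against 31.0 and 31.9 CPM. For both genes every labelled value was below every unlabelled one. Their log2 fold changes were -0.46 ± 0.13 and -0.36 ± 0.12 (edgeR adjusted p 0.259 and 0.326). Without unlabelled replicate 1 they were -0.31 and -0.37, and without unlabelled replicate 2 they were -0.56 and -0.32. Of their exon bases 31.5% and 21.0% lie in other annotated genes, and NDUFC2 shares exons with the readthrough gene NDUFC2-KCTD14.

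The NDUFA family is spread over the matrix arm, the hinge and the membrane arm, and its transcripts lay on both sides of 0. Of 13 genes, 9 had a log2 fold change below 0, with a median of -0.16 that became -0.04 without unlabelled replicate 2. Both labelled libraries were lower for 5 genes (22.4% of tested genes) and higher for 2 (22.2%). On the lower side, 4 genes had an unadjusted p under 0.05, where 5.88% of tested genes did. NDUFA11, a membrane protein at the contact with complex III in supercomplexes, had the lowest value. It was at 30.7 and 33.3 CPM (unlabelled) and 27.1 and 21.5 CPM (labelled). All labelled values were below the unlabelled ones, and the log2 fold change was -0.40 ± 0.15 (edgeR adjusted p 0.353). It was -0.44 without unlabelled replicate 1 and -0.34 without unlabelled replicate 2.

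NDUFA8 (ENSG00000119421, chromosome 9, 122144058 to 122159779), a twin-cysteine protein like NDUFB7, had the highest log2 fold change of the 44. It was at 52.6 and 37.6 CPM (unlabelled) and 58.0 and 64.4 CPM (labelled). The labelled values were both higher, but the unlabelled replicates differed from each other by more than replicate 1 differed from either labelled library. The log2 fold change was 0.43 ± 0.16 (edgeR adjusted p 0.347), and 0.74 without unlabelled replicate 1 but 0.23 without unlabelled replicate 2. NDUFA1, a short membrane subunit, was at 97.2 and 87.5 CPM (unlabelled) and 70.8 and 99.1 CPM (labelled). Here the labelled replicates bracketed the unlabelled ones, and the fitted log2 value, -0.12 ± 0.16 (edgeR adjusted p 0.799), became 0.12 without labelled replicate 1. NDUFAB1, the mitochondrial acyl carrier protein, and NDUFA10, a subunit with a nucleoside kinase fold, were both lower in every labelled library, with log2 fold changes of -0.21 ± 0.12 and -0.33 ± 0.13.

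Of the 4 accessory NDUFS and NDUFV subunits, 3 had a log2 fold change above 0, the median was 0.07, and none had an unadjusted p under 0.05. NDUFS6, a zinc-binding subunit of the matrix arm, was at 62.5 and 57.3 CPM (unlabelled) and 64.7 and 81.3 CPM (labelled). Both labelled values were higher, by little in replicate 1, and the log2 fold change was 0.29 ± 0.14 (edgeR adjusted p 0.460). It was 0.39 without unlabelled replicate 1 and 0.24 without unlabelled replicate 2. NDUFS5, a twin-cysteine protein on the intermembrane side, was at 153 and 124 CPM (unlabelled) and 116 and 129 CPM (labelled), with overlap, and its fitted log2 value was -0.18 ± 0.14 (edgeR adjusted p 0.643). Without unlabelled replicate 2 it was -0.32 and without unlabelled replicate 1 it was 0.015. NDUFS4 and NDUFV3, both of the matrix arm, were at 0.05 ± 0.15 and 0.09 ± 0.12.

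The 8 NDUFAF genes split evenly, 4 below and 4 above 0. Labelled libraries were lower in 2 (22.4% of tested genes), higher in 2 (22.2%) and overlapping in 4. NDUFAF4 (ENSG00000123545, chromosome 6, 96889315 to 96897891), which acts early in assembly together with NDUFAF3, had the highest value. It was at 32.5 and 26.9 CPM (unlabelled) and 37.8 and 37.2 CPM (labelled). The labelled pair was higher, and the log2 fold change was 0.33 ± 0.14 (edgeR adjusted p 0.398). It was 0.51 without unlabelled replicate 1 and 0.21 without unlabelled replicate 2. Its partner NDUFAF3 was at -0.08 ± 0.13, with overlapping groups, and at 0.096 without unlabelled replicate 1.

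NDUFAF8, which stabilises NDUFAF5, had the lowest value, at 49.1 and 60.1 CPM (unlabelled) and 43.5 and 37.7 CPM (labelled). The labelled libraries were the lower ones, with a fitted log2 value of -0.42 ± 0.14 (edgeR adjusted p 0.313). That value was -0.54 without unlabelled replicate 1 and -0.27 without unlabelled replicate 2. NDUFAF5, an arginine hydroxylase acting on NDUFS7, was at -0.11 ± 0.13, and NDUFAF7, an arginine methyltransferase acting on a core subunit, at 0.13 ± 0.16. NDUFAF1, part of the complex that assembles the membrane arm, was at 0.24 ± 0.16. NDUFAF2 is a relative of the subunit NDUFA12 and occupies its place until late in assembly. NDUFAF2 was at 0.14 ± 0.13 and NDUFA12 at 0.21 ± 0.16, with overlapping groups for NDUFA12 and both labelled values higher for NDUFAF2.

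**Figure D3:**
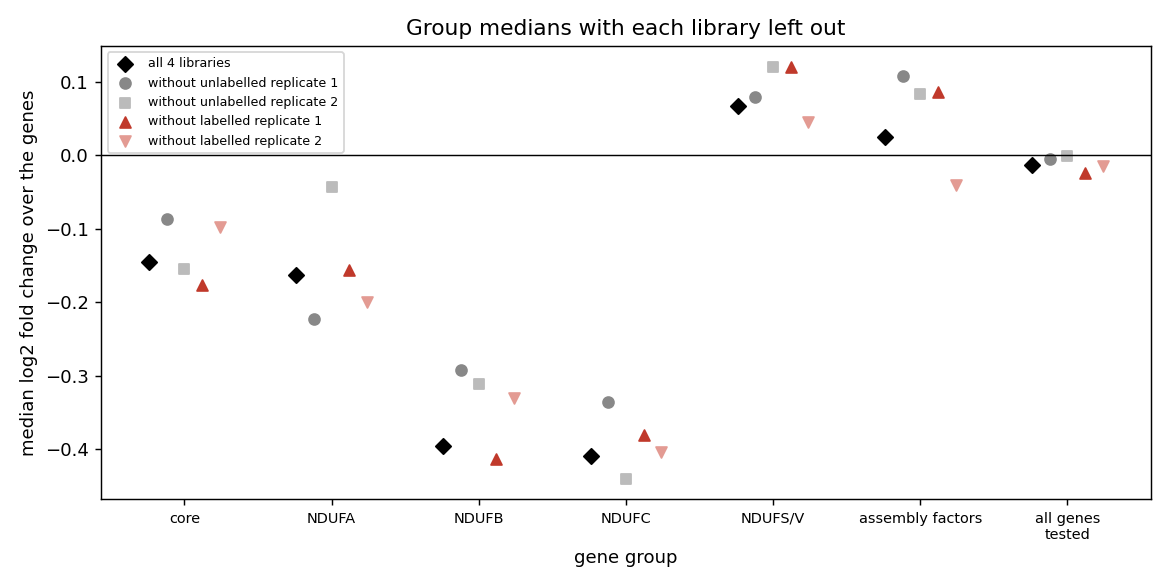
Median log2 fold change (vertical axis) of each role group and of all genes tested (horizontal axis), from the fit of all 4 libraries and with each library left out in turn. The NDUFB and NDUFC medians stay at or below -0.29 in every fit, and the assembly factor median changes sign without labelled replicate 2.

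Beside the rest of the pathway, the other nuclear genes of the respiratory chain lay on the same side as the complex I subunits. Of 41 nuclear-encoded subunits of complexes II to V, 39 had a log2 fold change below 0, with a median of -0.21. None was called, and 12 had an unadjusted p under 0.05 on the lower side, where 5.88% of tested genes did. Labelled libraries lay below unlabelled ones for 24 of the 41, where 22.4% of tested genes did. The range ran from ATP5ME, a small subunit of the ATP synthase (-0.73 ± 0.20, edgeR adjusted p 0.234), to ATP5F1A, its catalytic-head alpha subunit (0.29 ± 0.17, adjusted p 0.525). Without unlabelled replicate 1 that median was -0.03 with 25 of 41 below 0, and that of the complex I subunits was -0.19. Without unlabelled replicate 2 the order was that of all 4 libraries, with complexes II to V the lower. It was at -0.32 with 40 of 41 below 0 for complexes II to V and -0.18 for the complex I subunits. Another 11 assembly factors of complex I, not named NDUFAF, had 7 below 0, a median of -0.05 and 0 called. They ran from FOXRED1 (-0.37 ± 0.16, edgeR adjusted p 0.424) to TMEM70 (0.25 ± 0.13, adjusted p 0.496).

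The subunits of the same enzyme that are encoded on the mitochondrial chromosome lay on the opposite side of 0. All 7 MT-ND genes had a log2 fold change above 0, with a median of 1.88, and edgeR called 2 of them. They took 3.60% and 4.76% of assigned fragments in unlabelled and 11.3% and 13.0% in labelled libraries. The largest value, MT-ND1, was 2.42 ± 0.34 (edgeR adjusted p 0.00725). These RNAs are made in the compartment that holds the construct, and every value among the 44 nuclear genes lay below the smallest of the 7, which was 0.78 for MT-ND3.

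Levels differed far more among the 44 genes than between the groups. Levels between genes are given as fragments per kilobase of the main transcript per 1000000 (FPKM), since longer RNAs yield more fragments. The mean over the 4 libraries ran from 3.11 FPKM for NDUFA9 to 238 FPKM for NDUFS5. NDUFS5 was at 280.0 and 226 FPKM in unlabelled and 211 and 235 FPKM in labelled libraries. NDUFB10 came next with a mean of 192 FPKM and values of 213, 206, 174 and 175 FPKM in the same order, and its highest value did not reach the NDUFS5 values of the unlabelled libraries. NDUFB4 with a mean of 123 and NDUFA1 with 116 FPKM followed, and their ranges over libraries overlapped. NDUFAF8 (77.4 FPKM) and NDUFAF2 (65.4 FPKM) stood among the subunits, while NDUFAF5 (5.11 FPKM) was next to lowest. With the summed length of all annotated exons as the length, NDUFS5 kept the first place and NDUFA1 moved to second, at 211 FPKM. The lowest was then NDUFB5, at 1.94 FPKM, with NDUFA9 at 2.51 FPKM. The main transcripts of NDUFA9 and NDUFAF5 have 8363 and 5529 bases for coding sequences of 1131 and 1035. Their low places by main transcript therefore depend on the transcript chosen. The main transcripts come from an older annotation release, and that of NDUFA1, at 766 bases, is longer than the 421 exon bases over which its fragments were counted, so its level depends on the length used. The same holds to a lesser degree for NDUFA8, NDUFC2, NDUFS6 and NDUFAF3.

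**Figure D4:**
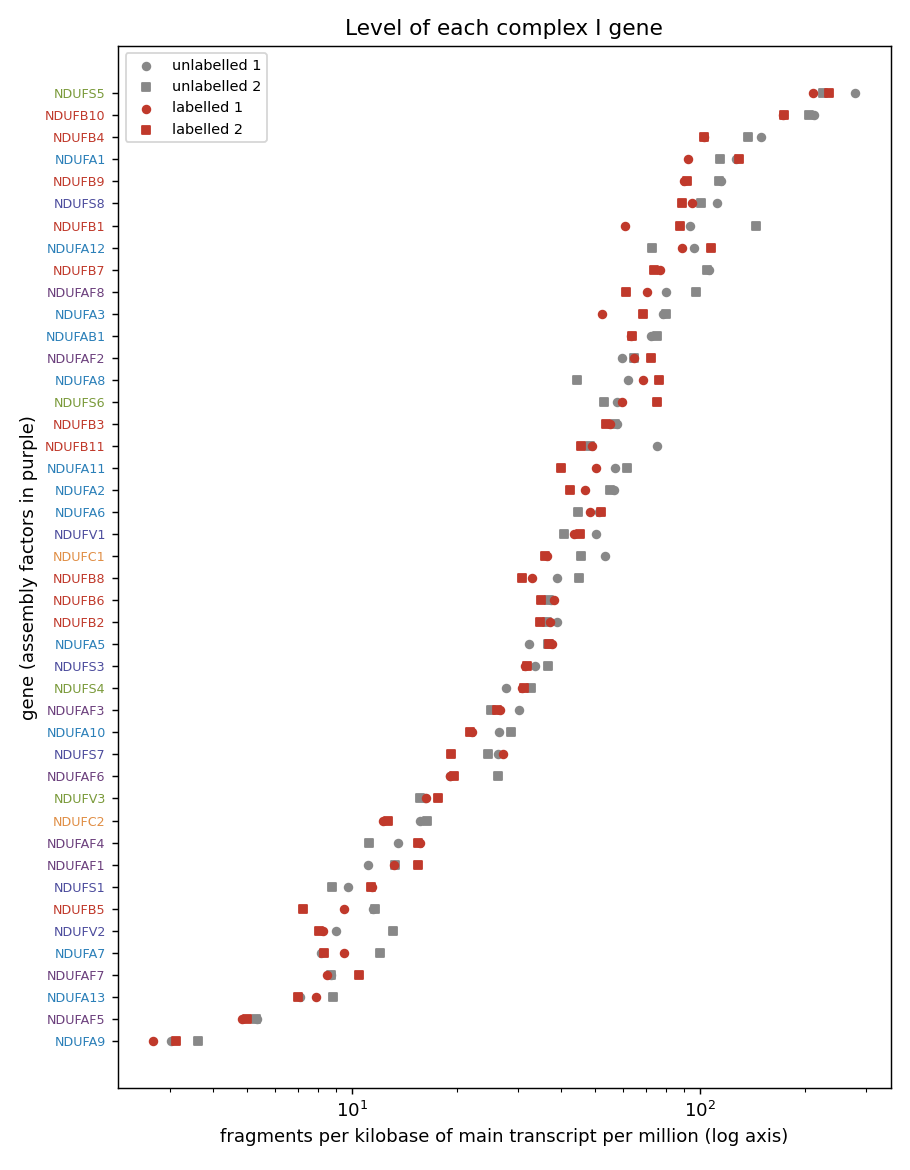
Level of each of the 44 genes in each library, in fragments per kilobase of main transcript per 1000000 (horizontal log axis), with genes sorted by their mean over the 4 libraries. Grey marks unlabelled and red labelled libraries. The libraries of 1 gene lie close together compared with the range over genes, from 3.11 to 238 on average.

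Most complex I subunits have short transcripts. The main transcript is the principal coding transcript of a gene, and its median length was 944 bases for the 36 subunits, 1905 for the 8 assembly factors and 3166 over tested genes. Under 1000 bases were 21 of 36 subunits and 2 of 8 assembly factors. Among these 23 genes 19 had a log2 fold change below 0, with a median of -0.21. Over all 634 tested genes with so short a main transcript, 65.6% were below 0, with a median of -0.12. Of the 11 complex I genes from 1000 to under 2000 bases, 7 were below 0, with a median of -0.07, where the 2605 tested genes of that length had a median of 0.01.

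Across the 44 genes, Spearman's rank correlation of the log2 fold change with the main transcript length was 0.40, and across 13472 tested genes with such a transcript it was 0.02. This correlation was chosen after seeing the data, and the planned length classes were those of summed exon length, not of the main transcript. With the summed exon length that the count table gives, the rank correlation was 0.08 over the 44, -0.097 over the same 13472 genes and 0.08 over all 18973 tested genes. The genes share the same 4 libraries, so these are descriptions across genes and not replicate evidence. The summed exon length includes rarely used exons, as in NDUFB9, where it is 16591 bases for a main transcript of 711. By that length the 5 complex I genes under 1000 bases had a median of -0.12, the 12 from 1000 to under 2000 bases -0.19, the 10 from 2000 to under 4000 bases -0.37 and the 17 longer ones -0.14. All tested genes had medians of -0.21, -0.09, 0.01 and 0.00 in these classes.

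**Figure D5:**
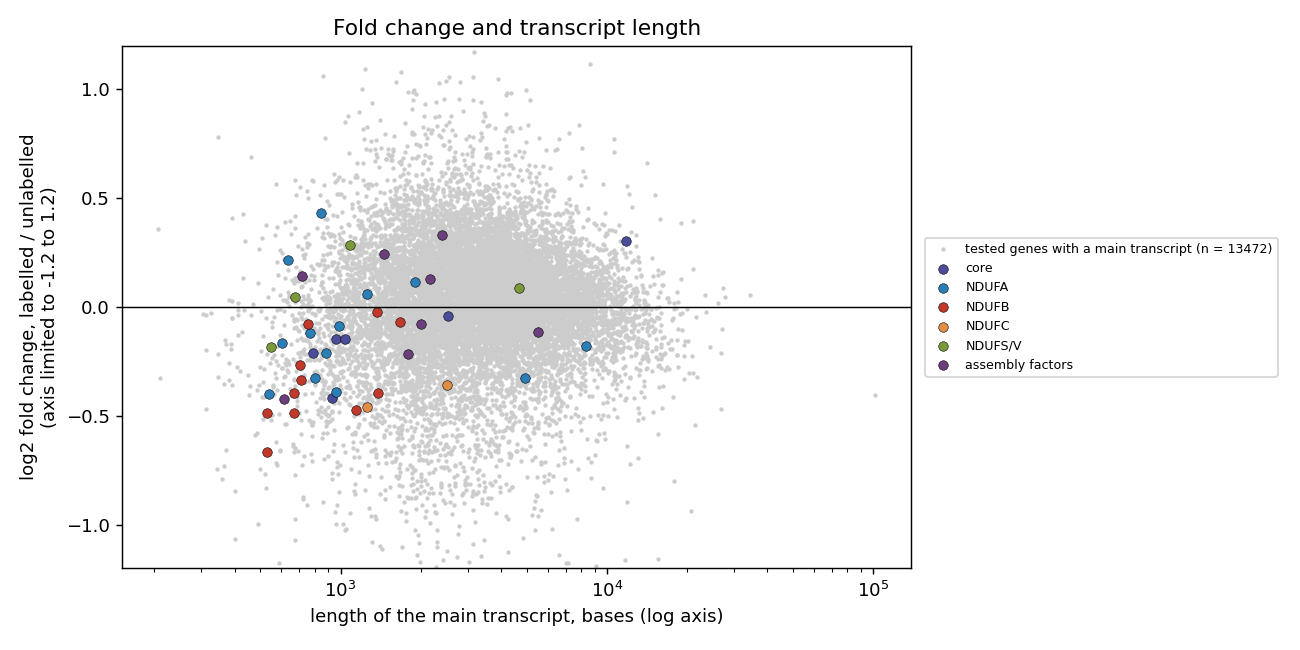
Log2 fold change, labelled over unlabelled (vertical axis, cut to the range of the complex I genes and their surroundings), against the length of the main transcript in bases (horizontal log axis). Grey points are tested genes with a main transcript and coloured points are the complex I genes by role. Of the 44 complex I genes, 23 have a main transcript under 1000 bases, and 19 of these lie below 0.

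By abundance, the genes were split into low, middle and high classes of equal size over all tested genes, by mean log2 CPM. Of the 44, 0 lay in the low class, 14 in the middle and 30 in the high class. The median was -0.15 for the middle 14 and -0.20 for the high 30, where all tested genes had 0.00 and 0.04. The rank correlation with mean log2 CPM was 0.03 over the 44 genes, and it ranged from -0.21 without unlabelled replicate 2 to 0.30 without unlabelled replicate 1. In the middle class, 9 of 10 subunits were below 0 and 1 of 4 assembly factors was, and in the high class 19 of 26 subunits and 3 of 4 assembly factors were. The share of uridine, the base that s4U replaces, had a rank correlation of 0.26 with the log2 fold change over the 44 genes and 0.09 over 13472.

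Counting limits fell unevenly on the list. Fragments that touch more than 1 gene were left unassigned, and 25 of the 44 genes have exon bases inside another annotated gene, 8 of them over 20%. The median was -0.11 for the 19 genes with none and -0.18 for the 25 with some. Of the 15 subunits with none, 8 were below 0, where 28 of all 36 subunits and 52.0% of tested genes were. Such unassigned fragments made up 11.3% and 12.8% of assigned plus ambiguous fragments in unlabelled and 9.24% and 9.02% in labelled libraries, and their part in the results was not tested. Annotated pseudogene copies exist for 20 of the 44 genes, 61 copies in all, and for 7 genes these held at most 1% as many fragments as the gene in every library. The highest shares after NDUFV2 were 14.0% for NDUFB5 and 10.5% for NDUFA9, so the counts of these genes are uncertain.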

How the data were processed

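RNA-seq fragment counts of 4 libraries were used. The deposited values are raw whole-number counts per gene, made by the authors with featureCounts 1.6.4 on GENCODE 44, with read pairs counted over exons and no strand option, per the file headers. The submitters' processing notes list STAR 2.7.9a, DESeq2 1.42.0 and the build GRCh38. How duplicates were handled is not given in the sources used. Counts without strand cannot separate a gene from an antisense partner.

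Counts were tested with edgeR 4.0.16 in R 4.3.3 (filterByExpr, TMM, glmQLFit and glmQLFTest, no block) over 18973 genes with Benjamini-Hochberg adjustment and a threshold of 0.05, after a check on simulated data. SE is the log2 fold change over the square root of F. CPM use TMM-scaled library sizes. The main transcript is the longest APPRIS principal one in GENCODE 29, on the same build. Coordinates are those of the count table, GRCh38, counted from 1. The table was read with Python 3.11.15. Of the promoter windows, 39 of 44 genes matched by symbol.

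The genes, lists and tests were chosen with earlier results of these data known. Values in every library are given for the 6 core subunits and, in each role, for the genes with the highest and lowest log2 fold change, the highest FPKM and the smallest p if under 0.05. NDUFB4, which falls outside these rules and was picked for its small p, was added after its values were seen. So were NDUFB11, NDUFAB1 and the other genes given by fold change only. The alternatives were library size alone, DESeq2 with its size factors, nuclear genes only, other filters, removal of the length trend, the replicate number as a block and leaving out each library. The labels do not say whether replicate numbers pair the libraries. The correlation of same-numbered deviations was -0.07 over 18973 genes, which rests on a single difference per group and cannot settle this.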

Additional observations from a re-analysis of the deposited data

How the results depend on the processing

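Depth was 5771795 to 12287451 assigned fragments, and each group had 2 libraries. The directions of the subunit and assembly factor medians held under DESeq2, nuclear genes only, a filter of at least 1 CPM in 2 libraries, no filter, removal of the length trend and the replicate block. With library size alone the median of all tested genes moved to -0.37, edgeR called 2744 genes and 23 of the 44 (all lower, where 14.1% of genes were called lower). The medians were then -0.54 for subunits and -0.33 for assembly factors, or -0.17 and 0.04 relative to all genes, and 11 of the 44 changed sign, all to below 0: NDUFS1 (-0.052), NDUFS6 (-0.074), NDUFAF4 (-0.023), NDUFA5 (-0.24), NDUFA6 (-0.29), NDUFA12 (-0.14), NDUFS4 (-0.31), NDUFV3 (-0.27), NDUFAF1 (-0.12), NDUFAF2 (-0.22) and NDUFAF7 (-0.23). Nuclear genes only gave 30 calls over all genes, against 54, and a complex I share ratio of 0.906. No filter gave 302 calls over 39689 genes (183 higher, 119 lower) and 1 of the 44 (NDUFB1, lower), with NDUFB6 at 0.0046. Removing the length trend put NDUFA1 at 0.10, NDUFB6 at 0.070 and NDUFS5 at 0.015. With the replicate number as a block, edgeR called 236 of 18973 genes (140 higher, 96 lower) and 1 of the 44, NDUFB1, on the lower side. The cause of these differences was not tested.

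Leaving out each library gave 58 to 3985 calls over all genes and 0 to 18 of the 44, both highest without unlabelled replicate 1. The assembly factor median ranged from -0.041 to 0.11, the rank correlation with summed exon length from 0.023 to 0.15, and the rank correlation with mean log2 CPM from -0.21 to 0.30. Over these fits NDUFV1 ranged from -0.18 to 0.15, NDUFS7 from -0.38 to 0.10, NDUFA1 from -0.37 to 0.12, NDUFB6 from -0.067 to 0.053 and NDUFS5 from -0.32 to 0.015. Of the 44, 6 changed sign without unlabelled replicate 1 (NDUFV1, NDUFB6, NDUFS5, NDUFB2, NDUFS4 and NDUFAF3), and 4 without unlabelled replicate 2 (NDUFA6, NDUFA7, NDUFA13 and NDUFAF6). Without labelled replicate 1 it was 2 (NDUFV1, at 0.0062, and NDUFA1), and without labelled replicate 2 it was 4 (NDUFS7, NDUFB6, NDUFA13 and NDUFAF7). Chosen after seeing the data, the rank correlation with main transcript length ranged from 0.26 to 0.40 over all settings, lowest with the length trend removed. On the genes with no exon base in another gene, also chosen later, the median was -0.12 for 15 subunits, with 8 below 0 and 7 above. For 4 assembly factors it was 0.01, with 2 below 0 and 2 above.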
